A study of Homo sapiens with 6 samples.

Results

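The genes examined here are 34 established transcriptional targets of the tumour suppressor p53, chosen by gene symbol, with earlier results of these data known. Of the 34 genes, 33 had counts, SPATA18 was not analysed here, and 31 of the 18750 genes with counts passed the filter on low counts and were among the 13750 genes tested. RNA sequencing was performed on HCT116 cells, a human colorectal cancer line, transfected with a negative control siRNA (siRNA-NC, 3 libraries) or with 1 siRNA against the long non-coding RNA AC010789.1 (si-AC010789.1, 3 libraries). All cells were grown in DMEM with serum and antibiotics, and no other treatment was named for either group. The comparison asks which transcripts differ after this siRNA. With 1 siRNA, loss of AC010789.1 and other effects of the same siRNA cannot be told apart. The study describes the libraries of a group as biological repeats that used cells of different generations, and the labels do not tie a library to a generation. The p-values measure the spread between these repeats.

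p53 is a transcription factor that is stabilised after DNA damage and other stresses. It binds pairs of a short consensus element near its target genes and raises their transcription. The products stop the cell cycle, sensitise cells to death, repair DNA, alter metabolism and, in a negative feedback, switch p53 off again. HCT116 cells are known to retain functional p53 and are widely used to study it.

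The total count was between 11277222 and 13443866 per library, and 3 counts corresponded to between 0.223 and 0.266 CPM. Levels are given as CPM, the counts of a gene relative to the library total, scaled with TMM factors, and differences as the log2 fold change of si-AC010789.1 over siRNA-NC with its standard error. A gene is called where its p from the quasi-likelihood test of edgeR, adjusted by Benjamini-Hochberg over all genes, was under 0.05. The level of AC010789.1 was not analysed here, so the labels were not checked against it. The colorectal label was met only in part by its markers. Of 8 epithelial markers, 4 were over 1 CPM, with KRT8 at 719 CPM in siRNA-NC against 534 in si-AC010789.1, KRT18 at 395 and 419, CLDN4 at 24.2 and 10.3, and EPCAM at 3.62 and 4.97. CDH17 had 4 counts over all libraries, and KRT19, VIL1 and CDX2 were not analysed here. Of 10 markers of other cell types, COL1A1 (43.3 CPM in the controls and 44.5 with si-AC010789.1) and COL3A1 (3.26 and 2.19) were over 1 CPM. CD14 stood at 0.6 and 0.989 CPM, and VWF had 11 counts in all. The part of these markers in the results was not tested. In such bulk samples, fewer cells of a type and less RNA per cell cannot be told apart.

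CDKN1A, which encodes the cell cycle inhibitor p21, and GDF15, a secreted stress cytokine, were lower in si-AC010789.1. These were the only 2 of the 31 tested targets that passed the adjusted p, and none passed in the other direction. That is 6.45% of the targets lower, against 0.698% of all genes lower, 0.284% higher and 0.982% in either direction. At an unadjusted p under 0.05, 8 targets were lower (25.8%, against 8.92% of all genes) and 2 were higher (6.45%, against 8.25%). In 9 targets (29%) every si-AC010789.1 library lay below every siRNA-NC library, which held for 12.9% of all genes. In 4 targets (12.9%) every si-AC010789.1 library lay above, which held for 12.2% of all genes. The smallest p that an exact two-sided permutation test of 3 against 3 libraries can give is 0.1, and it is the value for each of these 13 genes.

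The median log2 fold change of the 31 targets was −0.081, against −0.00066 for all genes tested. Leaving out siRNA-NC replicate 3 moved it to −0.18, and leaving out si-AC010789.1 replicate 3 moved it to −0.16. Of the targets, 21 were lower by any amount (67.7%), against 50.1% of all genes. The summed level of the targets was 1400, 1300 and 1360 CPM in siRNA-NC replicates 1, 2 and 3, and 1240, 1230 and 1210 CPM in si-AC010789.1 replicates 1, 2 and 3. The sums of the groups did not overlap. Most of the difference lay in CDKN1A (mean 145 to 103 CPM), DRAM1 (64.9 to 40.4), ZMAT3 (27.4 to 10.1), NINJ1 (41.9 to 29.6) and GDF15 (22.7 to 11.3), while 10 targets were higher by any amount.

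**Figure D1:**
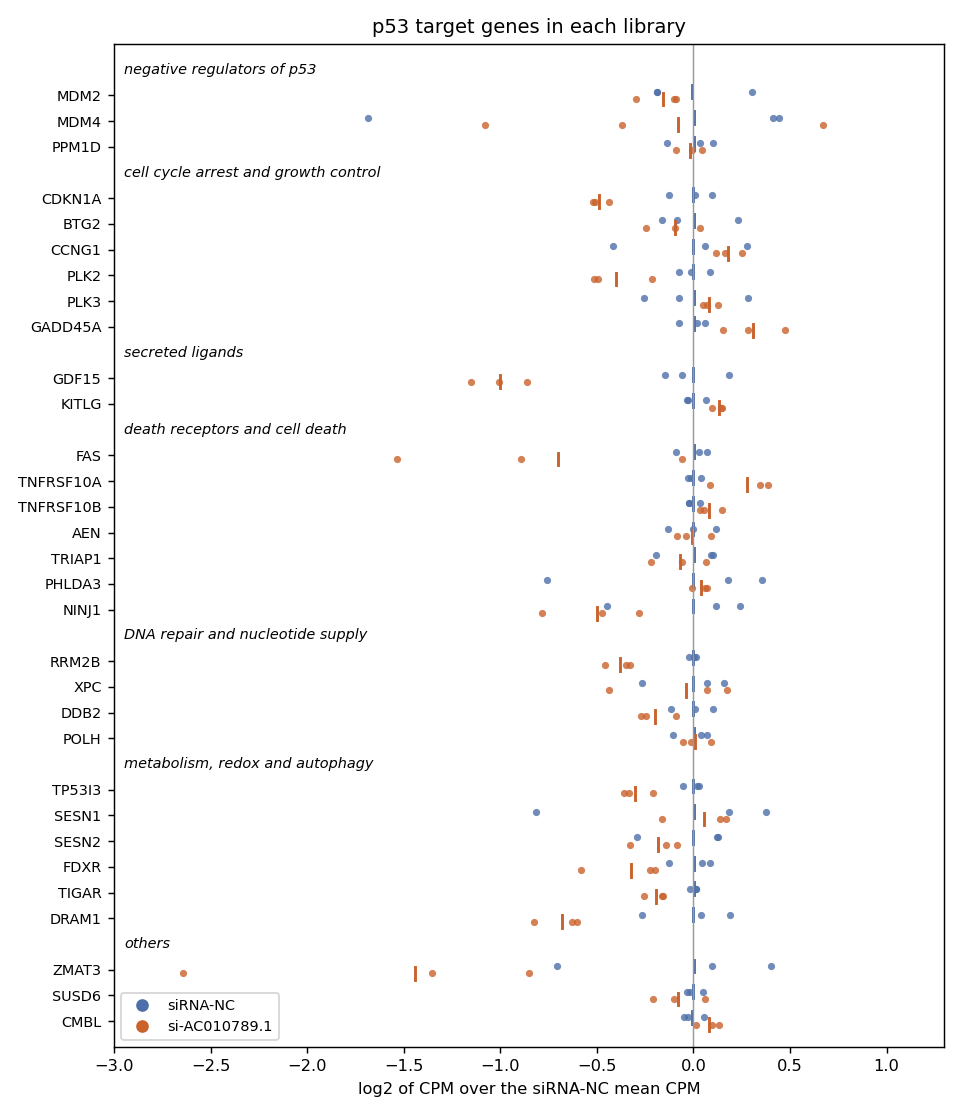
Each point is 1 library of siRNA-NC (blue) or si-AC010789.1 (orange), placed on the horizontal axis by the log2 of its CPM over the siRNA-NC mean CPM of that gene, with a short bar at each group's mean. The 31 tested targets are grouped by role. GDF15, CDKN1A, RRM2B and DRAM1 have their orange points to the left of all blue points, while MDM4, ZMAT3, FAS and SESN1 spread widely within a group.

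**Figure D2:**
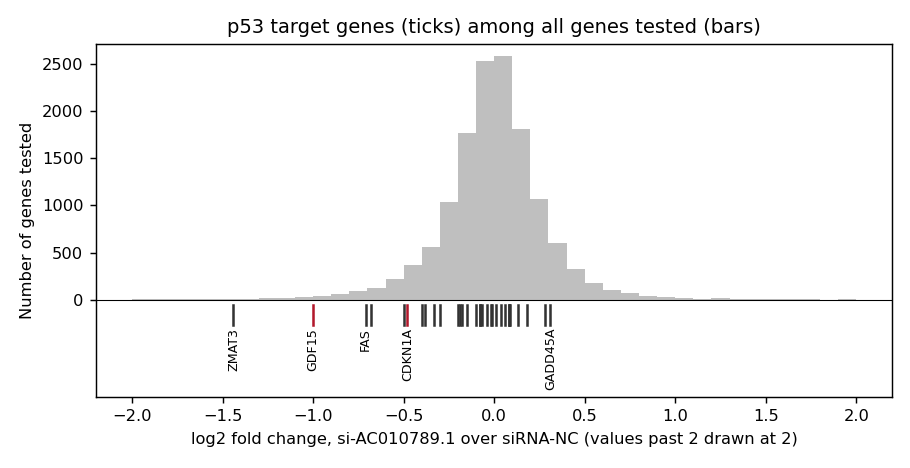
Grey bars count all 13750 tested genes by log2 fold change in steps of 0.1, with values past 2 drawn at 2, and ticks mark the 31 targets, in red for CDKN1A and GDF15. The ticks reach from −1.44 (ZMAT3) to 0.31 (GADD45A).

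None of the 3 negative regulators of p53 was called, and the groups overlapped for each. MDM2, the ubiquitin ligase that marks p53 for degradation (chromosome 12 of GRCh38, from 68808176 to 68850686), had 127, 90.4 and 90.3 CPM in siRNA-NC, against 83.8, 96.2 and 96.6 in si-AC010789.1. The groups overlapped, with siRNA-NC replicate 1 above the other 5 libraries (log2 fold change −0.15, standard error 0.148, adjusted p = 0.653 from edgeR). MDM4, which blocks the activation domain of p53, had 72.1, 16.8 and 73.5 CPM in siRNA-NC, against 86.0, 25.6 and 41.9 in si-AC010789.1. Replicate 2 was the lowest library of each group for MDM4, and the groups overlapped (log2 fold change −0.08, standard error 0.634, adjusted p = 0.963 from edgeR). That spread is too wide to show whether the MDM4 levels were alike. PPM1D, the phosphatase Wip1 that removes activating phosphates from p53, had 54.2 ± 4.48 CPM (SD, n = 3) in the controls against 53.6 ± 2.46 in si-AC010789.1 (log2 fold change −0.02).

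The transcripts behind the PPM1D sum differed between the groups. PPM1D-202 (ENST00000392995), annotated as subject to nonsense-mediated decay, had 0, 1 and 2 counts in siRNA-NC, against 67, 121 and 95 in si-AC010789.1. PPM1D-201, the full-length coding transcript, had 655, 653 and 726 counts in siRNA-NC, against 569, 553 and 533 in si-AC010789.1. Both transcripts had groups that did not overlap, in opposite directions. PPM1D-202 thus held at most 0.271% of the counts of the gene in siRNA-NC and from 10.5% to 17.9% in si-AC010789.1. PPM1D-202 passed the filter on low counts only through si-AC010789.1 and was picked after its values were seen. The edgeR test at the transcript level did not call it (adjusted p = 0.162), while DESeq2 gave an adjusted p of 1.71e-09. For a transcript picked in this way both values are a description and not evidence. PPM1D-202 has an extra exon of 111 nt at chr17:60656932-60657042 (GRCh38, plus strand), which follows the same exon 5. The reading frame meets a stop codon after 30 coding nt of that exon, so it has 430 codons where PPM1D-201 has 605. PPM1D-204, with 0, 0 and 10 counts in siRNA-NC, against 4, 1 and 2 in si-AC010789.1, shares this junction and ends at base 60656964, the last base of the stop codon. The bases across the junction are shown because they differ between PPM1D-202 and PPM1D-201, with the end of exon 5 in lower case and the next exon in capitals, which in PPM1D-202 run up to and include the stop codon TGA.
PPM1D-202: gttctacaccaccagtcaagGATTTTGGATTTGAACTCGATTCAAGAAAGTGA
PPM1D-201: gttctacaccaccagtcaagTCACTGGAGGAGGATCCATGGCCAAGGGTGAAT

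Among the genes of cell cycle arrest and growth control, CDKN1A was lower and GADD45A was higher in every si-AC010789.1 library. CDKN1A (ENSG00000124762.13, chromosome 6, from 36676460 to 36687339) had 133, 146 and 155 CPM in siRNA-NC, against 102, 107 and 101 in si-AC010789.1. The lowest control library was above the highest si-AC010789.1 library. The mean fell by 28.5%, from 145 ± 11.1 to 103 ± 2.85 CPM (SD, n = 3; log2 fold change −0.48, standard error 0.068, adjusted p = 0.0401 from edgeR). With 1 library left out the log2 fold change ranged from −0.54 to −0.43 and the edgeR adjusted p from 0.0637 to 0.141, so the call was lost in all 6 of those fits. It was also lost without the filter on low counts (0.0678) and with protein-coding transcripts alone (0.0707).

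PLK2, a stress-induced polo-like kinase, had 20.9, 19.5 and 18.7 CPM in siRNA-NC, against 17.0, 14 and 13.8 in si-AC010789.1. The groups did not overlap, but the test did not call the gene (log2 fold change −0.40, adjusted p = 0.159 from edgeR). GADD45A, a growth arrest protein that binds p21 and PCNA, had 14.5, 14.9 and 13.6 CPM in siRNA-NC, against 15.9, 19.9 and 17.4 in si-AC010789.1. It lay in the direction opposite to CDKN1A, also without a call (log2 fold change 0.31, adjusted p = 0.235 from edgeR). The groups overlapped for CCNG1 (cyclin G1; log2 fold change 0.18), for the antiproliferative gene BTG2 (−0.10) and for the kinase gene PLK3 (0.08, but −1.13 with protein-coding transcripts alone).

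GDF15 (ENSG00000130513.6, chromosome 19, from 18374731 to 18389176) had the largest difference among the called targets. It had 21.8, 20.5 and 25.8 CPM in siRNA-NC, against 11.3, 12.5 and 10.2 in si-AC010789.1. All control libraries were above 20 CPM and all si-AC010789.1 libraries were below 13 CPM. The mean went from 22.7 ± 2.76 to 11.3 ± 1.17 CPM (SD, n = 3; log2 fold change −1.0, standard error 0.129, adjusted p = 0.0326 from edgeR). With 1 library left out the log2 fold change stayed between −1.08 and −0.90, but the edgeR adjusted p of 0.0767 to 0.114 no longer passed in any of the 6 fits. It did not pass without the filter on low counts (0.0526) or with protein-coding transcripts alone (0.0659). GDF15-201 held between 98.4% and 100% of the counts of the gene in every library. The gene contains MIR3189 on the same strand. KITLG, which encodes the ligand of the receptor KIT, had 32.4, 34.7 and 32.5 CPM in siRNA-NC, against 36.7, 35.5 and 36.8 in si-AC010789.1. The groups did not overlap and the gene was not called (log2 fold change 0.13, adjusted p = 0.404 from edgeR). KITLG-204, a transcript without a coding annotation, held from 84.5% to 93.4% of the KITLG counts. For the coding KITLG-201 and KITLG-202 the groups overlapped.

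**Figure D3:**
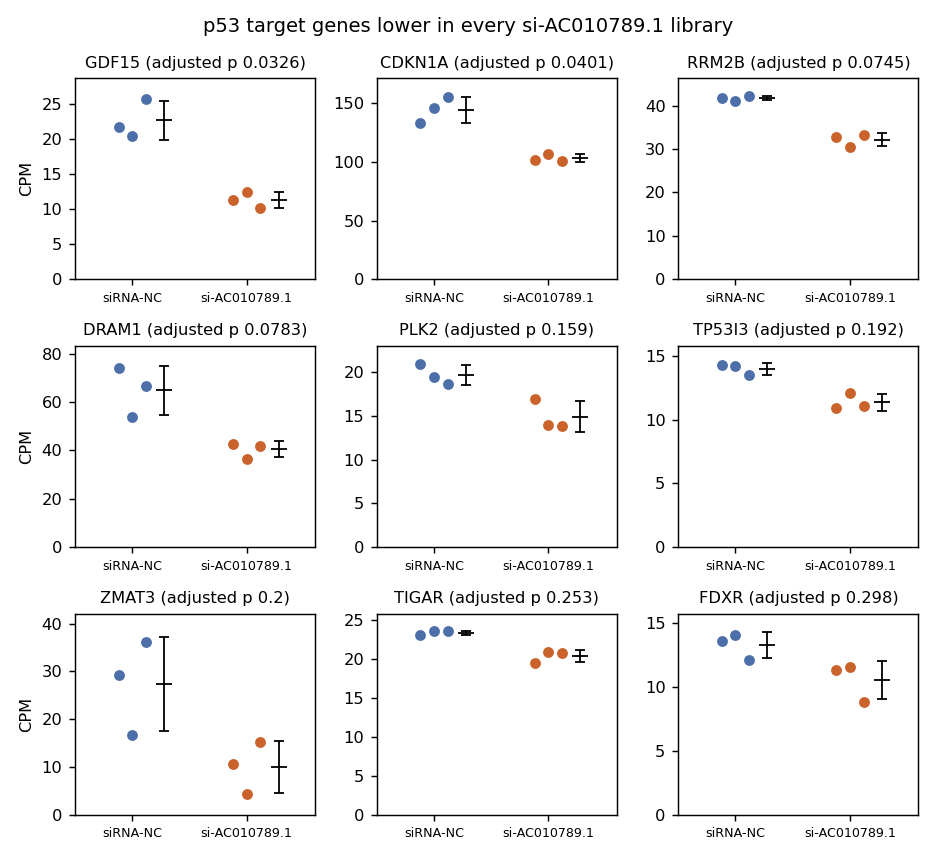
CPM of the 9 targets whose si-AC010789.1 libraries all lay below the siRNA-NC libraries, with 1 point per library, the group mean as a horizontal mark, error bars of 1 SD (n = 3) and the edgeR adjusted p above each panel. GDF15 and CDKN1A are the 2 with an adjusted p under 0.05. ZMAT3 shows the widest spread within a group relative to its level.

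No death receptor or cell death gene was called, and the receptors did not share a direction. The gene of the TRAIL receptor DR4, TNFRSF10A, had 37.4, 39.2 and 37.7 CPM in siRNA-NC, against 49.8, 48.3 and 40.4 in si-AC010789.1. Each si-AC010789.1 library was above the controls, replicate 3 by the least (log2 fold change 0.28, standard error 0.096, adjusted p = 0.225 from edgeR). TNFRSF10B, which encodes the TRAIL receptor DR5, had 130, 130 and 135 CPM in siRNA-NC, against 135, 146 and 137 in si-AC010789.1, and the log2 fold change was 0.08. That difference turned to −0.12 when protein-coding transcripts alone were summed. FAS, the receptor of FAS ligand, had 9.48, 10.3 and 10.6 CPM in siRNA-NC, against 9.70, 5.43 and 3.48 in si-AC010789.1. Replicate 1 of si-AC010789.1 was within the control range and replicate 3 was the lowest (log2 fold change −0.71, standard error 0.344, adjusted p = 0.354 from edgeR).

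NINJ1, whose product ruptures the plasma membrane of dying cells, had 49.5, 45.5 and 30.7 CPM in siRNA-NC, against 24.3, 34.4 and 30.2 in si-AC010789.1, and the groups overlapped (log2 fold change −0.50, adjusted p = 0.295 from edgeR). AEN, an apoptosis-enhancing nuclease (log2 fold change −0.01), TRIAP1, an inhibitor of apoptosis (−0.07), and PHLDA3, a repressor of AKT (0.04), also overlapped. TP53INP1 had counts in si-AC010789.1 replicate 3 alone, at 0.243 CPM. EDA2R had counts in siRNA-NC replicate 2 alone, at 0.302 CPM. Neither passed the filter and no fold change is given.

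Of the genes of DNA repair and nucleotide supply, RRM2B had the smallest spread. RRM2B, the p53-inducible subunit of ribonucleotide reductase (chromosome 8, from 102204502 to 102239118), had 41.9, 41.2 and 42.2 CPM in siRNA-NC, against 32.8, 30.4 and 33.3 in si-AC010789.1. The groups lay apart by more than the whole range of each, but the adjusted p of 0.0745 from edgeR missed the threshold (log2 fold change −0.38, standard error 0.071). DDB2, a damage sensor of nucleotide excision repair, had 76.6, 65.8 and 71.8 CPM in siRNA-NC, against 59.2, 67.0 and 60.2 in si-AC010789.1. The groups overlapped by 1 library (log2 fold change −0.20, adjusted p = 0.293 from edgeR). With protein-coding transcripts alone, the log2 fold change of DDB2 was −0.03. XPC, which recognises damage in the same pathway, ranged from 60.7 to 81.4 CPM in siRNA-NC and from 53.9 to 82.1 CPM in si-AC010789.1. POLH, a translesion polymerase, had 42.1 ± 2.71 and 42.4 ± 2.22 CPM (SD, n = 3).

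Of the 6 tested genes of metabolism, redox balance and autophagy, 5 were lower (83.3%, against 50.1% of all genes) and 4 of them did not overlap (66.7%, against 12.9%), with a median log2 fold change of −0.25 and no call. With 6 genes these shares are a description, and other roles differed. Of the 7 tested genes of death receptors and cell death, 57.1% were lower. Of those 7, 0% lay below the controls without overlap and 28.6% lay above (12.2% of all genes). DRAM1, a lysosomal protein of autophagy, had 74.0, 53.9 and 66.7 CPM in siRNA-NC, against 42.7, 36.6 and 42.0 in si-AC010789.1. Every control library was above 50 CPM and no si-AC010789.1 library was (log2 fold change −0.68, standard error 0.131, adjusted p = 0.0783 from edgeR). TP53I3, a quinone oxidoreductase, had 14.3, 14.2 and 13.5 CPM in siRNA-NC, against 10.9, 12.1 and 11.1 in si-AC010789.1 (log2 fold change −0.30, adjusted p = 0.192 from edgeR). TIGAR, a fructose-bisphosphatase that lowers glycolytic flux, had 23.0, 23.5 and 23.5 CPM in siRNA-NC, against 19.5, 20.9 and 20.8 in si-AC010789.1 (log2 fold change −0.19, adjusted p = 0.253 from edgeR). FDXR, the mitochondrial ferredoxin reductase, had 13.6, 14 and 12.1 CPM in siRNA-NC, against 11.3, 11.5 and 8.83 in si-AC010789.1 (log2 fold change −0.33, adjusted p = 0.298 from edgeR). The sestrins overlapped between groups, with log2 fold changes of 0.06 for SESN1 and −0.18 for SESN2. The summed level of the genes in this group was 143 ± 11.7 CPM (SD, n = 3) in the controls against 108 ± 0.628 in si-AC010789.1. Most of that difference was DRAM1, and without it the sums were 78.1 ± 3.24 and 67.9 ± 3.50 CPM (SD, n = 3).

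ZMAT3, an RNA-binding zinc finger protein, had 29.3, 16.8 and 36.2 CPM in siRNA-NC, against 10.7, 4.39 and 15.2 in si-AC010789.1. It had the largest fold change of the 31 targets, and the libraries of each group differed by more than 2-fold (log2 fold change −1.44, standard error 0.466, adjusted p = 0.200 from edgeR). The study's criteria were a p under 0.05 together with a log2 fold change past 1 in either direction. Applied to the unadjusted p, they were met by 2 targets, GDF15 and ZMAT3, which is 6.45% against 0.778% of all genes. GDF15 lay just past the cut (0.499-fold), and with upper-quartile factors its log2 fold change of −0.98 did not meet it. SUSD6 (log2 fold change −0.08) and the hydrolase gene CMBL (0.09) overlapped.

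DESeq2 called 5 targets, all lower, namely GDF15 (adjusted p = 3.79e-06), CDKN1A (2.04e-05), DRAM1 (0.000837), RRM2B (0.015) and ZMAT3 (0.0266). That is 16.1% of the targets, against 2.24% of all genes that it called lower and 3.84% that it called in either direction.

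The levels of the targets differed widely within a group. As summed CPM per kilobase of transcript in siRNA-NC, CDKN1A stood at 69.6, DDB2 at 55.9, CCNG1 at 51.5 and CMBL at 48.8, while SUSD6 stood at 4.85, FAS at 4.79 and SESN1 at 4.19. More than a 2-fold range between libraries of the same group was seen for 5 targets (MDM4, SESN1, FAS, ZMAT3 and PHLDA3), which is 16.1% against 13.8% of all genes.

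The 33 genes had 207 transcripts with counts, of which 87 were tested. None passed an adjusted p of 0.05 with edgeR, against 0.0135% of all transcripts, while 14 had an unadjusted p under 0.05 (16.1%, against 5.74%). DESeq2 called 8, and its share over all transcripts is not given here. The groups did not overlap for 23 transcripts (26.4%, against 14% of all transcripts), 14 lower and 9 higher. A transcript at 0 in every library of a group and at 10 or more counts in every library of the other was found 2 times among them (2.3%, against 0.228% of all transcripts). Those were CCNG1-208 and TP53I3-205, which passed the filter on low counts only through the group where they had counts. With 2 such transcripts the share is a description. How reads shared by several transcripts were assigned is not given in the sources used here. The transcripts of PPM1D, CCNG1, KITLG and AEN were picked after their values were seen.

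CCNG1-208 (ENST00000510664) was counted 79, 71 and 71 times in siRNA-NC but was at 0 throughout si-AC010789.1. That is at least 73.1-fold lower with 3 counts over the group as the floor (adjusted p = 0.153 from edgeR, 3.02e-09 from DESeq2). Since CCNG1-208 was picked by these same counts, the p-values are a description and not evidence. It joins an exon 2 of 90 nt to an exon 3 of 121 nt, where CCNG1-201 joins 264 nt to 254 nt, on the plus strand of chromosome 5. The junctions are shown because they differ between the pair, with the end of exon 2 in lower case and the start of exon 3 in capitals.
CCNG1-208: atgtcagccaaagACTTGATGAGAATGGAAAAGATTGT
CCNG1-201: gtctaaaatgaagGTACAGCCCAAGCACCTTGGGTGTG

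CCNG1-201 had 149, 188 and 238 counts in siRNA-NC, against 263, 413 and 171 in si-AC010789.1, so its groups overlapped. TP53I3-205, a transcript without a coding annotation, had 0 counts in each siRNA-NC library and 15, 45 and 27 counts in si-AC010789.1. That is at least 30.5-fold higher with the same floor (adjusted p = 0.338 from edgeR, 8.6e-05 from DESeq2). The same limit holds for the p-values of TP53I3-205. TP53I3-201, which codes for the protein, had 78, 100 and 101 counts in siRNA-NC, against 45, 23 and 33 in si-AC010789.1 (adjusted p = 0.624 from edgeR, 0.0206 from DESeq2). The gene overlaps FAM228B on the other strand, and whether the counting used strand is not given in the sources used here. AEN-203, a transcript with a retained intron, had 98, 132 and 179 counts in siRNA-NC, against 43, 36 and 30 in si-AC010789.1, while the coding AEN-201 had 378, 528 and 435 against 516, 518 and 509 counts. AEN-203 therefore held between 19.7% and 29% of the counts of the gene in siRNA-NC and between 5.55% and 7.58% in si-AC010789.1 (adjusted p = 0.320 from edgeR, 5.01e-05 from DESeq2). With protein-coding transcripts alone, the log2 fold change of AEN was 0.29.

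In 24 of the 31 targets the most abundant transcript was the same in all 6 libraries. In the other 7 it differed between libraries of the same group, namely CDKN1A, MDM4, TP53I3, TNFRSF10B, FDXR, PLK3 and CCNG1. For CDKN1A, 3 coding transcripts took turns. CDKN1A-208 had 883, 534 and 487 counts in siRNA-NC, against 320, 337 and 170 in si-AC010789.1, and its groups did not overlap. CDKN1A-201 had 359, 920 and 607 counts in siRNA-NC, against 326, 842 and 498 in si-AC010789.1, and overlapped. CDKN1A-203 had 249, 458 and 964 counts in siRNA-NC, against 519, 140 and 575 in si-AC010789.1, with a wider range within each group than between the groups. The sum over the gene was thus steadier than any of these transcripts.

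MDM4-209 had 0, 0 and 664 counts in siRNA-NC, against 572, 0 and 47 in si-AC010789.1, and MDM4-205 had 679, 95 and 126 against 269, 137 and 49 counts. TNFRSF10B-208, with a retained intron, had 261, 1112 and 1119 counts in siRNA-NC, against 451, 1194 and 1059 in si-AC010789.1, while TNFRSF10B-201 had 1099, 466 and 522 against 973, 455 and 486 counts. Replicate 1 stood apart from replicates 2 and 3 in both groups. PLK3-201 had 87, 79 and 113 counts in siRNA-NC, against 91, 22 and 5 in si-AC010789.1, and PLK3-204 had 0, 0 and 29 against 0, 77 and 92 counts. FDXR-217 had 0, 98 and 96 counts in siRNA-NC, against 0, 0 and 35 in si-AC010789.1, while FDXR-201 had 22, 11 and 3 against 47, 41 and 44 counts. A transcript at 0 in a library and at 50 or more counts in another of the same group was seen for 7 of the 87 tested transcripts (8.05%), against 5.82% of all transcripts.

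**Figure D4:**
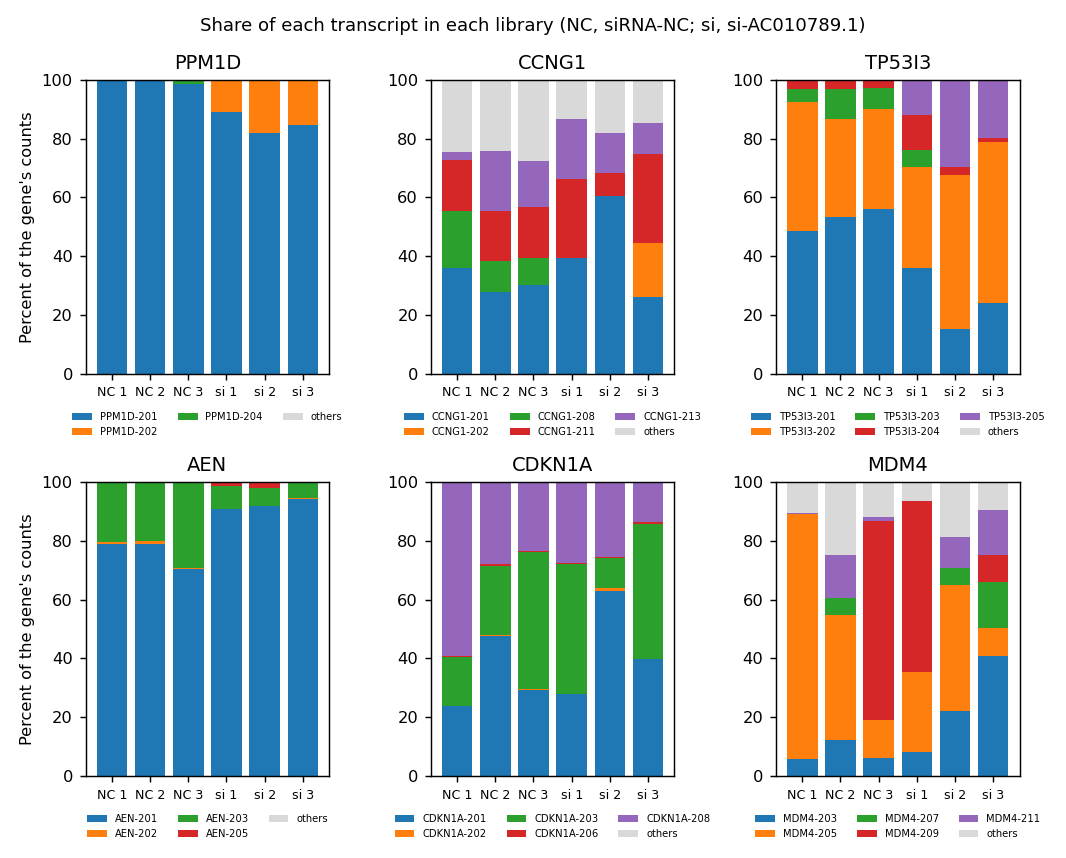
Bars give the percent of the counts of each gene held by its most abundant transcripts in each library, with the remaining transcripts in grey. PPM1D-202 appears in the 3 si-AC010789.1 libraries at 10.5% to 17.9%, CCNG1-208 is at 0 in those libraries, and AEN-203 takes a smaller share there, whereas the shares of CDKN1A and MDM4 differ between libraries of the same group.

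The promoter windows of the targets were searched for the p53 consensus element. RefSeq windows on GRCh38.p14, from 250 bases before to 50 bases after each start, matched 27 of the 34 genes with 39 windows. CMBL, GADD45A, PHLDA3, RRM2B, TNFRSF10A, TNFRSF10B and TP53INP1 were not matched. A single copy of the p53 consensus decamer, which reads the same on both strands, occurred without a mismatch in 6 of the 39 windows (15.4%; AEN, DDB2, FAS, FDXR, PLK2 and SESN1), against 6.63% of all 35116 windows. A pair of copies at most 1 base apart, with the central 4 bases of each intact and at most 3 other mismatches, occurred in 5 windows (12.8%), against 0.82% of all windows. This definition was set after matches had been seen. The sites are shown as the windows' letters read in the direction of the gene, with bases that match the consensus in capitals and mismatches or a spacer in lower case.
DDB2: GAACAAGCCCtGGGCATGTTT
FAS: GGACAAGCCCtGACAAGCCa
AEN: GGGCTTGCCCGGGCATGTgg
GDF15: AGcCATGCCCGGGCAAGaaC
SESN1: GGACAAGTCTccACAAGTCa

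A RefSeq window is not always set on the start that these libraries used, so each site is placed against the GENCODE start of the most abundant transcript of its gene. The GDF15 site lies at chr19:18386186-18386205 on the plus strand, has 3 mismatches and begins 28 bases downstream of the start of GDF15-201, which held nearly all counts. The DDB2 site lies at chr11:47214979-47214999 on the plus strand, has no mismatch and begins 13 bases upstream of the start of DDB2-203. The AEN site lies at chr15:88621306-88621325 on the plus strand, has 2 mismatches and begins 10 bases downstream of the start of AEN-201. The FAS site lies at chr10:88991309-88991328 on the plus strand and has 2 mismatches. Its window is set on the start of FAS-206, which had 0 to 5 counts per library, and the site begins 652 bases downstream of the start of FAS-204, the most abundant transcript. The SESN1 site lies at chr6:109009018-109009037 on the minus strand and has 3 mismatches. Its window is set on the start of SESN1-201, which had 0 to 20 counts per library, and the start of SESN1-204, the most abundant transcript, lies 85782 bases upstream of the site. Of these genes GDF15 alone was called, and their log2 fold changes were −0.20 (DDB2), −0.71 (FAS), −0.01 (AEN), −1.0 (GDF15) and 0.06 (SESN1). The windows of CDKN1A held no such pair. A match describes letters and not a site in use.

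Other genes of the pathway were read from 3 lists. Of 36 regulators of p53, 20 were lower (55.6%, against 50.1% of all genes) and 16 higher (median −0.026 on the log2 scale). The groups did not overlap for 6 lower (16.7%, against 12.9% of all genes) and 5 higher (13.9%, against 12.2%). DESeq2 called 1 lower and 1 higher (5.56% in either direction, against 3.84% of all genes). SETD7, a lysine methyltransferase that acts on histone H3 and on p53 (chromosome 4, from 139495941 to 139606699), was the only regulator called by edgeR (2.78% called higher, against 0.284% of all genes). It had 134, 141 and 137 CPM in siRNA-NC, against 190, 188 and 169 in si-AC010789.1 (log2 fold change 0.41, standard error 0.059, adjusted p = 0.0421 from edgeR). Of 64 further p53 targets, 59 were tested, 38 lower (64.4%, against 50.1% of all genes) and 21 higher, with a median of −0.052. No further target was called by edgeR, while 9 were lower (15.3%, against 8.92% of all genes) and 6 higher (10.2%, against 8.25%) at an unadjusted p under 0.05. DESeq2 called 3 (1 lower and 2 higher), which is 5.08% against 3.84% of all genes.

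Because p21 restrains the kinases that drive the cell cycle, 30 cell cycle genes known to be repressed through p21 were also read. Of these, 18 were higher (60%, against 49.9% of all genes) and 12 lower, with a median log2 fold change of 0.042. In 8 of them (26.7%, against 12.2% of all genes) the si-AC010789.1 libraries all lay above the controls, and in 3 (10%, against 12.9%) all lay below. At an unadjusted p under 0.05, 4 were higher (13.3%, against 8.25% of all genes) and 3 lower (10%, against 8.92%). DESeq2 called 2 higher and 1 lower (10% in either direction, against 3.84% of all genes). MYBL2, a transcription factor of cell cycle genes (chromosome 20, from 43667019 to 43716496), was the only cell cycle gene of the list called by edgeR (3.33% called higher, against 0.284% of all genes). It had 366, 357 and 359 CPM in siRNA-NC, against 451, 444 and 447 in si-AC010789.1 (log2 fold change 0.31, standard error 0.035, adjusted p = 0.0223 from edgeR). With 1 library left out, neither SETD7 nor MYBL2 passed in any of the 6 fits, with adjusted p of at most 0.144 and 0.105.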

How the data were processed

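The authors deposited 1 table of read counts per Ensembl transcript for 6 paired-end libraries. The submitters' processing notes name CASAVA 1.8, TopHat2 2.0.6 and the builds mm10 and GRCh38. The counting program, its annotation and its use of strand are not given in the sources used here. The deposited counts were matched to GENCODE v29 (98782 of 98886 transcripts), summed per gene, filtered with filterByExpr and scaled with TMM factors. Groups were compared with edgeR 4.0.16 (R 4.3.3; quasi-likelihood test, Benjamini-Hochberg adjustment), and DESeq2 1.42.0 was the alternative. Steps were tested on simulated data with the common dispersion of each fit. There the gene fit called 10% of the changes at an absolute log2 fold change of 0.5 and 70% at 1. The transcript fit called 0% at 1, 2% at 2 and 86% at 6. A missing call therefore does not show that a gene change of 0.5 or 1, or a transcript change of 1 or 2, is absent. The study used Cuffdiff, which was not run. Standard errors were derived from the fold change and the F statistic. The members and lists were chosen with earlier results of these data known. All targets are accounted for. List genes are named when called. Outside the promoter search, transcripts are described for targets that were called or whose top transcript varied within a group. Those of PPM1D, KITLG and AEN met neither condition and were picked after their values were seen. Counts per transcript depend on how shared reads were assigned, and sums per gene depend on it less.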

Additional observations from a re-analysis of the deposited data

How the results depend on the processing

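Each value was recomputed under other settings. Of 403 such values for single targets, 357 kept their direction and side of the threshold, 18 lost the call (CDKN1A and GDF15, 9 settings each), 3 gained it with DESeq2 (RRM2B, DRAM1 and ZMAT3) and 25 reversed, in 12 targets. The correlations of same-numbered deviations were 0.090, 0.003 and 0.000, against −0.077 to 0.079 for the other pairs. With 3 libraries per group, these values cannot settle whether replicate numbers pair the libraries. With the number as a replicate block 0 genes, 0 targets, 0 regulators and 0 cell cycle genes passed, 1 target met the study's criteria and MDM4 was at 0.01. DESeq2 called 528 genes, 5 targets, 2 regulators, 3 further targets, 3 cell cycle genes and 8 transcripts. With RLE or upper-quartile factors 1 target met the criteria, and with the latter AEN was at 0.01 and PPM1D at 0.001. Without the filter 69 genes, 0 targets and 0 regulators passed and 332 genes met the criteria. With protein-coding transcripts alone 56 genes, 0 targets and 0 regulators passed, 1 target met the criteria, and TNFRSF10B was at −0.12, AEN at 0.29 and PLK3 at −1.13. With 1 library left out 12 to 37 genes, 0 targets, 0 regulators, 0 to 1 further targets and 0 cell cycle genes passed, 107 genes at the criteria became 149 to 169 and 2 targets became 0 to 2 (0 without siRNA-NC replicate 3, 1 without si-AC010789.1 replicate 3), and the median was −0.18 to −0.087. The log2 fold change then ranged from −0.24 to 0.03 for MDM2, −0.68 to 0.24 for MDM4, −0.23 to 0.29 for SESN1, −0.18 to 0.02 for BTG2, −0.16 to 0.12 for XPC, −0.07 to 0.06 for AEN, −0.04 to 0.24 for PLK3, −0.08 to 0.04 for PPM1D, −0.05 to 0.04 for POLH, −0.16 to 0.002 for TRIAP1 and −0.23 to 0.26 for PHLDA3. The cause of these shifts was not tested. DESeq2 gave no adjusted p for SESN1, FAS and PLK3.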
